A study of Schizosaccharomyces pombe with 4 samples.

Results

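Non-coding RNA genes were taken from a table of Upf1 association along the genome of fission yeast (Schizosaccharomyces pombe) as every gene whose identifier starts with SPNCRNA, which gave 132 of the 4888 listed genes. Upf1 is an RNA helicase best known for its part in nonsense-mediated mRNA decay, the pathway that removes mRNAs with a premature stop codon. Here it carried an HA tag at its own locus and was recovered by chromatin immunoprecipitation (ChIP) with an antibody against HA, and the recovered DNA was hybridised to tiling arrays. Of the 4 arrays, 1 held the immunoprecipitate (IP) of an asynchronous culture and 1 that of a culture in S phase, while the other 2 held input DNA, which the labels call untreated and which served for both cultures. The S-phase culture carried the cdc25-22 mutation, which blocks entry into mitosis at high temperature. It was kept at 37 °C for 3.5 h, moved to 25 °C and fixed 60 min later. The study's strain list names an HA-tagged upf1 strain with cdc25-22 and another with a tagged Rpb3, and which was grown for the asynchronous array is not stated. Heat shift and cell cycle stage, and strain if it differed, cannot be told apart between the cultures. The titles of the IP arrays end in different date-like strings, and any effect of separate array runs cannot be told apart from these either. With a single IP array for each culture there was no replicate, so all differences are described without a test and carry no p-value, and precision is limited by how few arrays there were.

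Non-coding RNA genes of fission yeast make RNAs that are not translated. A small group is made by every growing cell and forms the core of RNA-protein machines, such as the signal recognition particle, RNase P, RNase MRP and telomerase. The larger group consists of long non-coding RNAs, many of which are kept at a low level during growth by nuclear RNA decay, and some of which appear in meiosis or quiescence. In the current RefSeq annotation 99 of the 132 genes had an entry, namely 88 as lncRNA, 10 as ncRNA and 1 as snoRNA, and the other 33 are named by identifier only. ChIP DNA carries no strand, so where a non-coding RNA gene overlaps another gene the signals of both cannot be told apart.

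As deposited, a value is the IP signal of a gene divided by its mean input signal. Over the 132 genes the asynchronous ratios ran from 0.224 to 2.14, with a median of 0.711 and quartiles of 0.533 and 0.938. The S-phase ratios ran from 0.0367 to 0.607, with a median of 0.156 and quartiles of 0.115 and 0.201. The median over all listed genes was 0.774 in the asynchronous and 0.195 in the S-phase column, and the arrays were not scaled to each other, so a ratio of 1 is no mark of enrichment. All further Upf1 values are therefore log2 ratios relative to the median listed gene of the same column.

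The class lay slightly below the median gene and was more spread than protein-coding genes in both cultures. In the asynchronous culture its median was −0.12, with quartiles of −0.54 and 0.28 and a standard deviation (SD) over genes of 0.58. The 4730 protein-coding genes had a median of 0.0017 and an SD of 0.33 in that culture. In S phase the median of the class was −0.32, with quartiles of −0.76 and 0.045 and an SD of 0.74, beside 0.0060 and 0.46 for protein-coding genes. Values above the median gene were found at 54 of the 132 genes in asynchronous cells and at 39 in S-phase cells. Both medians depended on the reference point and on the genes kept. Centred on the 25% of listed genes with the lowest RNA polymerase II (Pol II) ratio, they were 0.069 (asynchronous) and −0.067 (S phase). Over the 40 genes left without the lowest 20% of RNA levels, they were 0.11 and −0.0099.

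Relative to the median listed gene, calls exceeded the share of all listed genes mainly on the low side. These counts mix the lower median of the class with its wider spread. Around the class's own median the quartiles lay at similar distances on both sides. In the asynchronous culture 11 non-coding RNA genes (8.33%) had a ratio of 1.5-fold or more over that of the median gene, a log2 ratio of 0.58, while 5.14% of all listed genes did. A ratio at least 1.5-fold below the median gene was seen at 30 of them (22.7%), against 3.36% of all listed genes. In S phase 16 genes (12.1%) lay above the same threshold, close to the 11.2% of all listed genes. On the low side there were 43 genes (32.6%), against 7.96% of all listed genes.

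**Figure D1:**
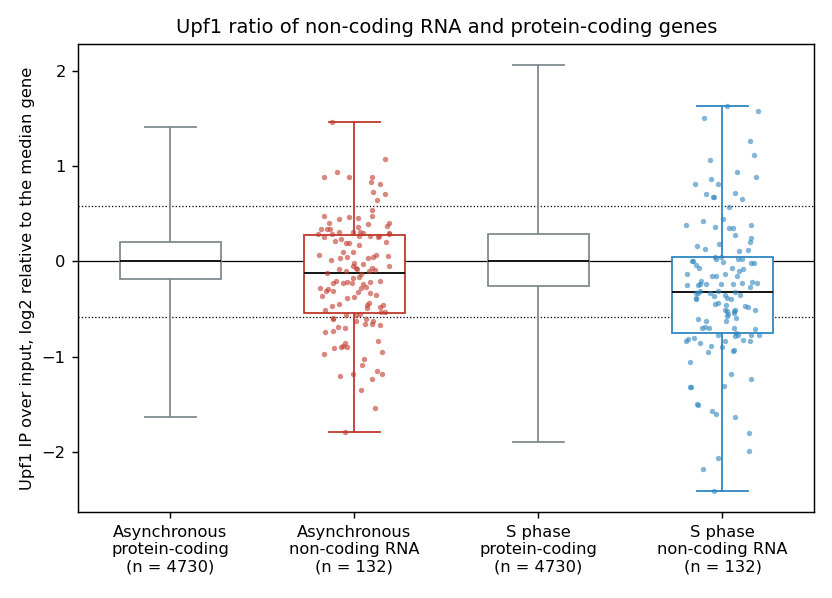
Upf1 IP over input ratio, as log2 relative to the median listed gene of the column, for protein-coding and non-coding RNA genes in the asynchronous and the S-phase culture. Boxes give quartiles and medians, whiskers the full range, each point is 1 non-coding RNA gene and the dotted lines mark 1.5-fold, and the boxes of the 132 non-coding RNA genes are wider than those of the 4730 protein-coding genes in both cultures.

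Transcription and RNA level also set the class apart from most genes. Pol II phosphorylated on Ser5 of its tail, which marks transcribing polymerase, was deposited as a ratio over its own inputs, and its median over the class was −0.33 on the log2 scale relative to the median gene, with an SD of 1.07. The RNA level, deposited as a natural log of FPKM + 1 and hence per length of transcript, had a median of 2.22 in the class and 3.76 over protein-coding genes. Of the 132 genes, 92 (69.7%) were in the lowest 20% of all listed genes by RNA level and 12 in the highest 20%. By Pol II ratio, 61 (46.2%) were in the lowest 20% and 26 (19.7%) in the highest 20%. Both columns come from published experiments on other cultures. No listed gene had an RNA level below 1.46, so genes with less RNA are absent from the class and from all listed genes. The paper compared Upf1 with RNA after leaving out the least expressed genes. Whether that cut made this list is not stated.

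The class was split by rank of its own Pol II ratios into 3 tiers of 44 genes each. In the asynchronous culture the median Upf1 ratio was −0.40 in the lower, −0.14 in the middle and 0.15 in the upper tier. The corresponding medians in S phase were −0.46, −0.49 and 0.0070, so the S-phase values of the lower and middle tiers lay close together. The calls above the 1.5-fold threshold fell mostly in the upper tier, with 1, 2 and 8 genes from lower to upper tier in the asynchronous culture (2.27%, 4.55% and 18.2%) and 1, 0 and 15 in S phase (2.27%, 0% and 34.1%). Genes at least 1.5-fold below the median gene were found in every tier, with counts of 13, 10 and 7 in the asynchronous culture (29.5%, 22.7% and 15.9%) and 18, 17 and 8 in S phase (40.9%, 38.6% and 18.2%).

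For protein-coding genes within the same ranges of Pol II ratio the medians were higher from each range to the next in both cultures, and the spread was smaller. Their asynchronous medians were −0.22 (381 genes), −0.10 (2266 genes) and 0.17 (1998 genes) from the lower to the upper range, and those in S phase were −0.30, −0.13 and 0.26. Their calls above the threshold were also most frequent in the upper range, with 2.10%, 1.28% and 9.91% in asynchronous cells and 1.84%, 2.03% and 23.6% in S-phase cells. Their calls below the median gene made up 12.6%, 3.31% and 0.350% in asynchronous cells and 21.3%, 9.44% and 2.10% in S-phase cells. The low side was thus more frequent among non-coding RNA genes in each range, a difference that was not tested. In the upper range the SD in S phase was 0.80 for non-coding RNA genes and 0.45 for protein-coding genes. The ranges do not match the classes fully, since in the lower range the median Pol II ratio was −1.35 for non-coding RNA genes and −0.89 for protein-coding genes, and in the upper range it was 0.67 and 0.45.

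Splitting into 3 tiers of RNA level gave a less regular order. The asynchronous medians were −0.083, −0.32 and 0.048 from the lower to the upper tier, and the S-phase medians −0.37, −0.49 and −0.014, so the middle tier was the lowest in each culture. Protein-coding genes within the same ranges had asynchronous medians of −0.096 (97 genes), −0.12 (614 genes) and 0.023 (3960 genes). Their S-phase medians were −0.18, −0.16 and 0.040, so there the lower range was the lowest. Calls above 1.5-fold numbered 4, 0 and 7 non-coding RNA genes in the asynchronous culture (9.09%, 0% and 15.9%), beside 5.15%, 1.30% and 5.56% of those protein-coding genes. In S phase they numbered 2, 1 and 13 (4.55%, 2.27% and 29.5%), beside 2.06%, 4.40% and 12.5%. When both splits were crossed, the 24 genes in the upper tier of Pol II ratio and of RNA level had medians of 0.30 in asynchronous cells and 0.69 in S-phase cells. They held 7 of 11 calls in asynchronous cells and 13 of 16 in S-phase cells, which is 29.2% and 54.2% of the 24 genes. Of the 1898 protein-coding genes within both upper ranges 10.3% and 24.1% were called. These shares are not matched for Pol II. Over the whole upper Pol II range the median Pol II ratio was 0.67 in the class and 0.45 in protein-coding genes. Past a 2-fold Pol II threshold, described below, such calls were less frequent in the class than in protein-coding genes. The 8 genes in the upper tier by Pol II ratio and the middle tier by RNA level had medians of −0.35 and −0.40, with 4 genes at least 1.5-fold below the median gene in each culture. Of the 83 protein-coding genes within those ranges 3.61% and 10.8% lay that low. Low ratios were not particular to this combination. The 15 genes in both lower tiers had medians of −0.47 and −0.69, with 6 and 8 genes that low. Of the 47 protein-coding genes within both lower ranges 10.6% and 12.8% were.

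**Figure D2:**
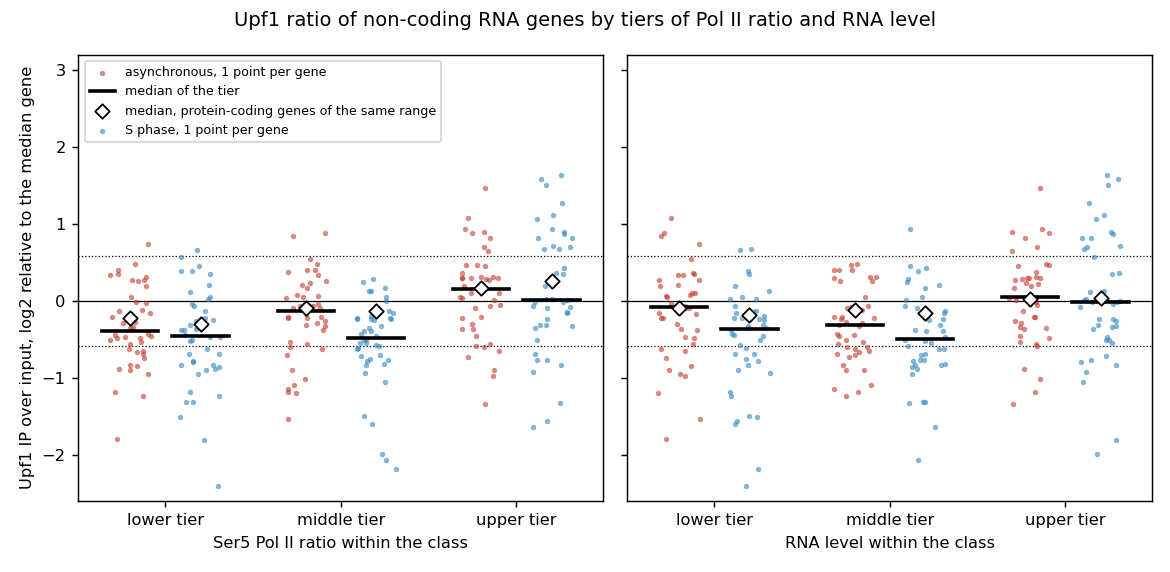
Upf1 ratio of the 132 non-coding RNA genes, as log2 relative to the median gene, by tiers of the Ser5 Pol II ratio (left) and of the RNA level (right), with 44 genes in each tier. Points are genes, bars are medians of a tier, diamonds are medians of protein-coding genes within the same range and dotted lines mark 1.5-fold, and the points past the upper line are mostly in the upper tier by Pol II ratio, with 8 of 11 in the asynchronous culture and 15 of 16 in S phase, where 9.91% and 23.6% of protein-coding genes of that range were past the line too.

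Across the 132 genes, which are not replicates, Upf1 and Pol II were related with a Spearman's rho of 0.280 in asynchronous cells and 0.391 in S-phase cells. Over the 4730 protein-coding genes these values were 0.572 and 0.586. With the RNA level rho was 0.159 and 0.291 in the class, and between Pol II ratio and RNA level it was 0.267, against 0.589 over protein-coding genes. Without the 2 non-coding RNA genes of highest Pol II ratio, rho for Upf1 against Pol II was 0.307 and 0.363. The genes of 1 column share an IP array and the inputs, and the difference in rho between the classes was not tested.

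A Pol II ratio at least 2-fold above the median gene was found at 16 non-coding RNA genes (12.1%), and at 7.36% of all listed genes. Their Upf1 medians were 0.28 in asynchronous cells and 0.68 in S-phase cells, and 12 and 11 of them lay above the median gene. The 340 protein-coding genes past that Pol II threshold had medians of 0.49 and 0.74, and 326 of them lay above the median gene in each culture. A Upf1 ratio at least 1.5-fold above the median gene was found at 3 and 9 of the 16 (18.8% and 56.25%). Among the 340 there were 121 and 239 (35.6% and 70.3%), and over all listed genes 5.14% and 11.2%. The share was thus lower in the class in each culture, a difference that was not tested. A Upf1 ratio at least 1.5-fold below the median gene was found at 3 of the 16 in each culture (18.8%), and at 1 and 7 of the 340 (0.294% and 2.06%). In the whole class 22.7% and 32.6% lay that low, and of all listed genes 3.36% and 7.96%. Low Upf1 ratios were thus also present at some non-coding RNA genes of high Pol II, at a share below that of the class. SPNCRNA.240 is one such gene. Its Pol II ratio was 1.05 and its Upf1 ratios were −0.90 and −1.64, asynchronous value first, and it was chosen as an example after its values were seen.

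The strongest Upf1 signal of the class was at prl53 (SPNCRNA.53), a poly(A)-bearing RNA. Its deposited ratio was 2.14 in asynchronous cells and 0.607 in S-phase cells, which is 2.76-fold and 3.11-fold above the median gene, or log2 ratios of 1.47 and 1.64. Both were the highest of the class. Its Pol II ratio was 1.52 and its RNA level 7.79. The gene overlaps the coding gene SPAC27E2.11c on the same strand, which had Upf1 ratios of 0.94 and 1.55, so the signal cannot be assigned to one of them.

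SPNCRNA.92 had deposited ratios of 1.48 and 0.583, or 0.94 and 1.58 relative to the median gene. It overlaps pma1, the gene for the plasma membrane proton pump, on the opposite strand. At pma1 the Upf1 ratios were 0.67 and 1.00, and the Pol II ratio was 1.67 beside 2.06 at SPNCRNA.92. SPNCRNA.92 thus lay above pma1 in each of these columns, while its RNA level was lower, 5.02 against 7.14 at pma1. Probes were assigned to genes by the array's description file, and whether a probe within the overlap counted for both genes is not stated.

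The RNA of RNase MRP, mrp1, which takes part in ribosomal RNA processing, had deposited ratios of 1.21 and 0.423. Relative to the median gene these were 0.64 and 1.12, with a Pol II ratio of 2.14 and an RNA level of 8.31. No coding gene overlaps mrp1 in the annotation, and the nearest listed one, SPAC10F6.14c, had Upf1 ratios of −0.17 and −0.29. SPNCRNA.73 and SPNCRNA.74 had no entry in the annotation. The former had ratios of 0.81 and 1.07 and the latter of 0.89 and 0.81, at Pol II ratios of 0.72 and 0.32. The genes prl53, SPNCRNA.92, mrp1, SPNCRNA.73 and SPNCRNA.74 were each in the upper tier by Pol II ratio and by RNA level, and their values in both cultures rest on the same inputs.

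Other genes stood out on 1 array. SPNCRNA.570 had the second highest asynchronous value, 1.07, and an S-phase value of −0.15, and its RNA level of 1.65 was in the lower tier. It overlaps the coding genes SPBC30B4.09 on the same strand and SPBC3D6.16 on the opposite strand, neither of which is listed. SPNCRNA.119 had values of 0.89 and −0.011 at a Pol II ratio of 0.84. The S-phase value of prl32 was 1.27 and its asynchronous value 0.015. It had the highest Pol II ratio of the class, 3.95, at an RNA level of 3.08. On the same strand it overlaps the coding genes SPCC417.15, where the Upf1 ratios were −0.089 and 0.84, and SPCC417.16, which is not listed.

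In the lower tier by Pol II ratio, 1 gene in each culture (2.27%) was past 1.5-fold, close to the 2.10% and 1.84% of protein-coding genes of that range. In the asynchronous culture it was prl26, with a value of 0.73, an S-phase value of 0.028 and a Pol II ratio of −1.62. Its RNA level of 1.47 was the lowest of the class. The nearest listed coding gene, SPBC19C7.04c, had Upf1 ratios of 1.01 and 0.74. In S phase it was SPNCRNA.300, with 0.66 in S phase, −0.16 in the asynchronous culture and a Pol II ratio of −0.91.

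At the ends of the other columns, SPNCRNA.99 had the third highest Pol II ratio of the class, 2.14, with Upf1 ratios of 0.30 and −0.31. After SPNCRNA.414, the lowest Pol II ratios were −2.03 at SPNCRNA.256 and −2.02 at prl6. Upf1 ratios were −0.84 and −0.95 at the former and −0.56 and −0.37 at the latter, so both genes lay below the median gene in both cultures. SPNCRNA.504 and SPNCRNA.579 had RNA levels of 1.47, next to the lowest, and Upf1 ratios of 0.34 and −0.61 for the former and 0.36 and −0.16 for the latter. SPNCRNA.579 overlaps the coding gene ggc1 on the opposite strand, with 0.36 and 0.52.

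The threshold cut through a continuous range of values. In the asynchronous culture the genes just inside were mrp1 with 0.64 and prl58 with 0.71, and those just outside were SPNCRNA.236 with 0.54 and rse1 with 0.48. In S phase SPNCRNA.300 with 0.66 and SPNCRNA.258 with 0.68 were just inside, and SPNCRNA.01 with 0.57 and SPNCRNA.108 with 0.45 just outside.

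At the low end, prl21 had the lowest asynchronous value, −1.79, and an S-phase value of −1.51, from deposited ratios of 0.224 and 0.0683. Next in the asynchronous culture were SPNCRNA.201 at −1.54, SPNCRNA.120 at −1.35, SPNCRNA.121 at −1.23 and prl23 at −1.20. The lowest S-phase value was −2.41 at SPNCRNA.423, annotated as specific to stationary phase, whose asynchronous value was −0.85. It was followed by prl24 at −2.19, prl4 at −2.06, SPNCRNA.438 at −1.99 and SPNCRNA.414 at −1.80. Of these, SPNCRNA.414 is annotated as meiosis specific and had the lowest Pol II ratio of the class, −2.81. The gene prl4 overlaps mad2, a spindle checkpoint gene, on the opposite strand, and mad2 had Upf1 ratios of −0.18 and −0.31, closer to the median gene than those of prl4. The gene prl23 overlaps the coding gene otg2 on the opposite strand, with −0.26 and −0.64.

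**Figure D3:**
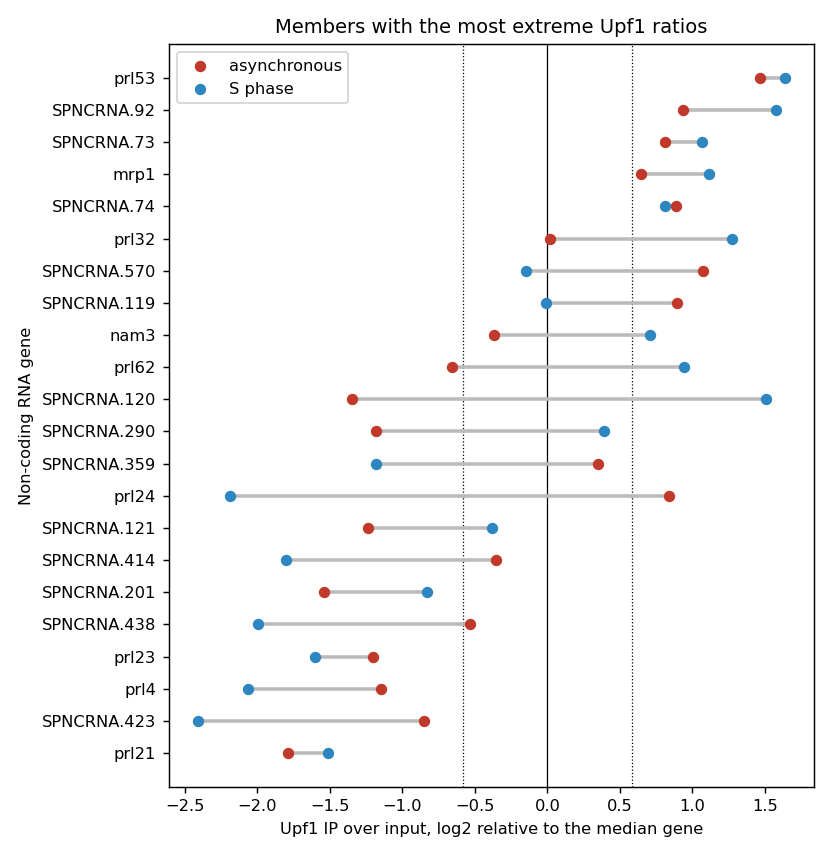
Upf1 ratio, as log2 relative to the median gene, of the non-coding RNA genes with the highest and lowest ratios in each culture and the largest differences between cultures, with 1 row for each gene. The points give the asynchronous and S-phase value and dotted lines mark 1.5-fold, and prl53 is past the upper line with 1.47 and 1.64 while prl24 runs from 0.84 to −2.19.

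The S-phase and asynchronous IP arrays were then set against each other as a log2 ratio of S phase over asynchronous, in which the inputs cancel and which was centred on its own median over all listed genes. The class had a median of −0.17 and an SD of 0.67, and protein-coding genes had 0.0030 and 0.33. Of the non-coding RNA genes 12 (9.09%) were at least 1.5-fold higher in S phase, against 3.78% of all listed genes, and 27 (20.5%) were at least 1.5-fold lower, against 4.03%. The SD divided by the square root of 2, taken as the spread between single arrays, was 0.48 for the class and 0.24 for all listed genes. It also contains any true difference between the cultures.

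Differences on both sides occurred in every tier by Pol II ratio, with 4, 2 and 6 genes higher in S phase and 9 lower in each tier. Of protein-coding genes within the same ranges 5.51%, 2.12% and 5.11% were higher, against 9.09%, 4.55% and 13.6% of the tiers, and 9.19%, 3.75% and 2.15% were lower, against 20.5% of each tier. By RNA level, 2, 3 and 7 genes were higher (4.55%, 6.82% and 15.9%) and 13, 7 and 7 were lower (29.5%, 15.9% and 15.9%), from the lower to the upper tier. The shares of protein-coding genes were 3.09%, 3.26% and 3.69% higher and 8.25%, 4.07% and 3.26% lower. The widest differences were at prl24, which was lower in S phase by 3.03 (from 0.84 to −2.19), and at SPNCRNA.120, which was 2.85 higher (from −1.35 to 1.51). The RNA of SPNCRNA.120 is annotated as expressed in stationary phase and quiescence, and its gene had a high Pol II ratio of 2.54 and an RNA level of 5.78. No annotated coding gene overlaps either gene. The nearest listed one to prl24, ivn1, had values of 0.52 and −0.53, and the nearest to SPNCRNA.120, mam301, had 0.42 and 0.93.

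Next on the higher side were prl62 with a difference of 1.59, SPNCRNA.290 with 1.56, prl32 with 1.25 and nam3 with 1.07. The values of prl62 were −0.66 and 0.94, while msi2, which overlaps it on the same strand, had 0.14 and 0.26. On the lower side, SPNCRNA.423 had a difference of −1.56, SPNCRNA.359 of −1.54, SPNCRNA.438 of −1.47 and SPNCRNA.414 of −1.46. SPNCRNA.359 is annotated as a centromeric lncRNA and had values of 0.35 and −1.18. Centromeric sequence is repeated, so probes there may hybridise to several copies.

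Non-coding RNAs with a name of their own, other than an SPNCRNA or prl number, were described separately, grouped with their values known. For several of them the annotation gives no role. Among the RNAs of housekeeping machines, the 7SL RNA of the signal recognition particle, srp7, had the highest RNA level of the class, 11.1, with a Pol II ratio of −0.053. It is made by RNA polymerase III. Its deposited Upf1 ratios were 0.911 and 0.214, or 0.23 and 0.13 relative to the median gene, below the 1.5-fold threshold on each array. The second highest RNA level, 8.96, was at SPNCRNA.242, with Upf1 ratios of 0.27 and 0.36.

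The RNA of RNase P, rrk1, which processes tRNA precursors, had Upf1 ratios of 0.45 and 0.87 with a Pol II ratio of 1.45 and an RNA level of 7.38. It overlaps the coding gene pre10 on the opposite strand, where the Upf1 ratios were 0.27 and 0.30. The small nucleolar RNA gene snoR61 had 0.31 and 0.89 with a Pol II ratio of 1.42, so its S-phase value was past the threshold, as was that of rrk1. Telomerase RNA, ter1, lay below the median gene with −0.26 and −0.71, at a Pol II ratio of −0.63 and an RNA level of 4.33. Its nearest listed coding gene, SPAC16A10.03c, had −0.23 and −0.74.

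Among the others with a name of their own none was past the upper threshold in the asynchronous culture, where 5.14% of all listed genes were. A group this small can hold none at that share. The meiotic RNA sme2 (meiRNA), which binds the meiosis regulator Mei2, had 0.46 and 0.0079. Its gene overlaps the coding gene mrpl8 on the same strand, with −0.11 and −0.050. The gene rse1, annotated as a repressor of ste11 in cis, had 0.48 and 0.049, and it overlaps cyc3 on the opposite strand with 0.50 and 0.34. The values of nam3 were −0.37 and 0.71, those of omt3 −0.43 and −0.83, and those of tos2 −0.083 and −0.51. The gene tos2 overlaps the coding gene rec7 on the opposite strand, which is not listed. The genes meu3 and meu19 are named for upregulation in meiosis and had the lowest Pol II ratios of this group, −1.52 and −1.59. Their Upf1 ratios were −0.74 and −0.78 at meu3 and −0.45 and −0.23 at meu19.

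**Figure D4:**
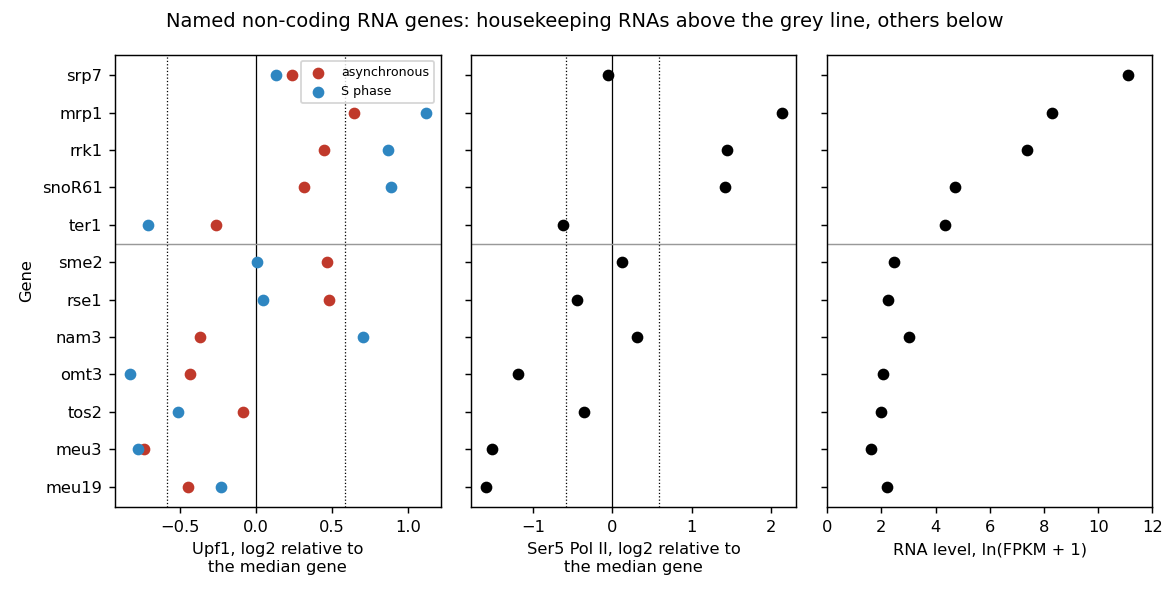
Upf1 ratio in both cultures (left, log2 relative to the median gene), Ser5 Pol II ratio (middle, log2 relative to the median gene) and RNA level (right, natural log of FPKM + 1) of non-coding RNA genes with a name of their own, with housekeeping RNAs above the grey line and the other RNAs below it. Dotted lines mark 1.5-fold, and mrp1 is past the upper one with 0.64 and 1.12 while srp7, with the highest RNA level of 11.1, has 0.23 and 0.13.

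Overlap with a coding gene in the annotation was present at 12 of the 36 named non-coding RNA genes that have an entry. For the class as a whole it was not counted, because 99 of 132 genes (75%) have an entry. The 99 genes with an entry had Upf1 medians of −0.16 and −0.35, and the 33 without one had −0.095 and −0.23. Calls above 1.5-fold numbered 7 in asynchronous cells and 14 in S-phase cells among the former (7.07% and 14.1%), and 4 and 2 among the latter (12.1% and 6.06%), around the 5.14% and 11.2% of all listed genes. SPNCRNA.115 and SPNCRNA.455 hold the same RNA level, 4.49, in the deposited table.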

How the data were processed

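The deposited table holds 1 row per gene. Per the methods, the authors summarised the probes of each Affymetrix tiling array to 1 signal per gene, averaged the 2 inputs after scaling them to a common median, and divided the IP signal by that mean, which makes each deposited Upf1 value a linear ratio. Of 2 IP arrays per culture they kept the better one. The deposited Pol II ratios were made likewise from published Ser5 arrays. For the RNA level the authors took the mean FPKM of published RNA-seq libraries, added 1 and deposited its log, whose base is not stated and was taken as the natural log. FPKM multiplied by gene length in kb then summed to 917913, against 177585 with base 2. No values were missing. Neither of these columns, both the authors' means, has an error here.

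Ratios were converted to log2 and centred on the median of all listed genes, with no further filter and no pseudocount, in Python 3.11.15 (pandas 2.3.3, NumPy 2.4.6, SciPy 1.17.1, matplotlib 3.10.9). The 3 tiers were taken by rank within the class. The scripts were tested on simulated data. Identifiers were matched to the RefSeq annotation of ASM294v3 by locus tag (95) or synonym (4). It served for names, products and neighbours only, because the build used for the gene signals is not given in the sources used here, and no coordinates or sequences are printed. Named were genes past 1.5-fold on both arrays, the 5 highest and lowest per array and per difference, the 3 highest and lowest by Pol II ratio and RNA level, RNAs of known name, SPNCRNA.92, and the 2 nearest to the threshold on each side. The members, lists and rules were chosen with earlier results of these data known. Alternatives are given in the closing section.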

Additional observations from a re-analysis of the deposited data

Results flagged for a closer look

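Of the 132 genes, 3 lay at least 1.5-fold from the median gene on opposite sides in the asynchronous and the S-phase culture, which is 2.27% of the class, and 7 of the 4888 listed genes (0.143%) did, these 3 included. The requirement of 1.5-fold on each side was set after the values were seen and is narrower than a plain opposite sign. With 1 IP array per culture none of these differences was tested. SPNCRNA.120 had −1.35 in asynchronous cells and 1.51 in S-phase cells, a centred difference of 2.85. The gene prl24 had 0.84 and −2.19, a difference of −3.03. The gene prl62 had −0.66 and 0.94, a difference of 1.59.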

How the results depend on the processing

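Most summaries of the class moved with the processing, and the asynchronous median changed sign under both settings named next. Centring on the 25% of genes lowest in Pol II gave medians of 0.069 (asynchronous; −0.12 as reported) and −0.067 (S phase; −0.32), shares above 1.5-fold of 15.2% and 18.2% (all listed genes 12.3% and 22.7%, so the S-phase share was under that of all genes), and shares below of 13.6% and 16.7% (1.17% and 3.11%). Without members in the lowest 20% of RNA level, 40 genes were left, with medians of 0.11 and −0.0099, 17.5% and 32.5% above (5.86% and 13.0% of all listed genes with that cut), 12.5% and 17.5% below (2.20% and 5.98%), and 17.5% higher in S phase (3.91%). The upper minus lower tier was then 1.17 for Pol II in S phase (0.46 as reported), and 0.54 and 0.88 for RNA level (0.13 and 0.35). Scaling the S-phase ratios to the asynchronous spread gave 6.82% above and 20.5% below in S phase (5.03% and 3.38% of all listed genes), and 11.4% lower in S phase (2.13%). At 2-fold, 1.52% and 4.55% lay above (0.491% and 2.97%), 7.58% and 12.1% below (0.552% and 1.90%), 3.79% higher and 8.33% lower in S phase (0.634% and 0.859%). Defining the class by RefSeq biotype was tried only for the Upf1 medians and the shares above 1.5-fold. It moved none of these by more than the limits used here. The alternatives for shares below the median gene and for differences between cultures were chosen after seeing the data. Corrections for GC content, overlap and gene length were not run, since 75% of members have an annotation entry, under the 80% required. No paired analysis was possible because each culture has 1 IP array, and no array could be left out of a single deposited ratio. The cause of these shifts was not tested.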
